A study of Caenorhabditis elegans with 9 samples.

Results

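Intestines of adult worms grown in 2 µM heme were compared with intestines of worms grown in 400 µM heme, the lowest and the highest of 3 doses in a series on the nematode Caenorhabditis elegans. The comparison takes in 6 of the 9 RNA-seq libraries, 3 at each of these doses, and all 21776 genes of the deposited table. Every worm was of the wild-type strain N2 and was cultured at 20 °C in the liquid medium mCeHR2, with the stated heme from the first larval stage for 4 days. A library was made from the intestines of 3 adults, combined before lysis, by reverse transcription and PCR amplification. Each library therefore pools 3 animals, and the labels give no measurement of the heme inside them.

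Heme is the iron-containing ring that cytochromes, catalases and many other proteins need for electron transfer and oxygen chemistry. C. elegans cannot make heme and takes it up from its food through the intestine, where membrane permeases import it, an ABC transporter exports it towards other tissues, and secreted proteins carry heme or report on heme status between tissues. Several of these genes carry the name hrg, for heme-responsive gene.

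The libraries held between 54923920 and 72960600 counts at 2 µM heme and between 57099679 and 63752331 at 400 µM heme, and levels are given as CPM, the count relative to the library total after TMM scaling. The 19 intestine marker genes were all detected and took 4.54, 16.1 and 16.6% of the counts at 2 µM heme, against 11.1, 22.6 and 20.5% at 400 µM heme. These markers include the yolk protein genes vit-2, vit-5 and vit-6, so their share cannot be read as the amount of intestine RNA. Replicate 1 at 2 µM heme stood apart from the other libraries at that dose. Yolk protein genes took 1.84% of its counts, against 13.9 and 14.4% in replicates 2 and 3 at 2 µM, cuticle collagens 7.41% against 0.0980 and 0.0960%, and inducible heat shock genes 1.74% against 0.113 and 0.111%. Replicates 2 and 3 at 2 µM heme were close to identical, with r = 0.9945 across genes (log2 CPM), where the other pairs within a dose had r between 0.8357 and 0.953. They still differed by more than sampling noise, with a chi-square of 11.25 per degree of freedom against 360.7 to 2498 for the other pairs. That excess cannot show whether they hold separate animals, since libraries amplified separately from 1 lysate could also differ by more than sampling noise. They were kept as separate libraries, as labelled, and the counts obtained when they are summed into 1 library stand beside the results.

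Genes of heme uptake and delivery, some cytochrome P450 and glucuronosyltransferase genes and several protease genes rose at 2 µM heme, while all pud genes and some germline genes fell. With edgeR's quasi-likelihood test and Benjamini-Hochberg adjustment over the 12701 genes tested, 284 genes (2.24%) changed at an adjusted p under 0.05. Of these, 150 (1.18%) were higher and 134 (1.06%) lower at 2 µM heme. The rises had a median of 11.6-fold, and 27 of them exceeded 100-fold. The falls had a median of 7.23-fold, and 10 of them exceeded 100-fold. Together the 150 higher genes made up 8.59% of each 2 µM library and 0.495% of each 400 µM library on average, and the 134 lower genes 0.103% at 2 µM heme and 10.3% at 400 µM. Among all genes tested, 15.5% had all 2 µM libraries above all 400 µM libraries and 13.8% had them all below, and 2609 genes had an unadjusted p under 0.05. Since the tissue was measured in bulk, fewer cells of a type and less RNA per cell cannot be told apart.

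The number of calls rested on single libraries. With replicates 2 and 3 at 2 µM heme summed, 23 genes (0.168% of those then tested) were called, 19 higher and 4 lower. Of the cathepsin and aspartyl protease genes and of the germline and oocyte markers described below, 0 were called with that sum. Without replicate 1 at 2 µM heme the count was 1340, without replicate 2 it was 13 and without replicate 3 it was 23. Without replicate 1 at 400 µM heme it was 64, and without replicate 3 at 400 µM heme it was 0, with 2055 genes at an unadjusted p under 0.05 (DESeq2 on all 6 libraries called 1928, of which 795 were higher, 6.26% of genes tested, and 1133 lower, 8.92%). The calls below come from all 6 libraries, and those also called with the summed libraries are named as such. Called with the sum but not described below were F58B4.5, D1007.15, nep-8 and R05H10.7. Their log2 fold changes in the summed fit were 4.50, 3.84, 5.60 and -7.29.

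**Figure D1:**
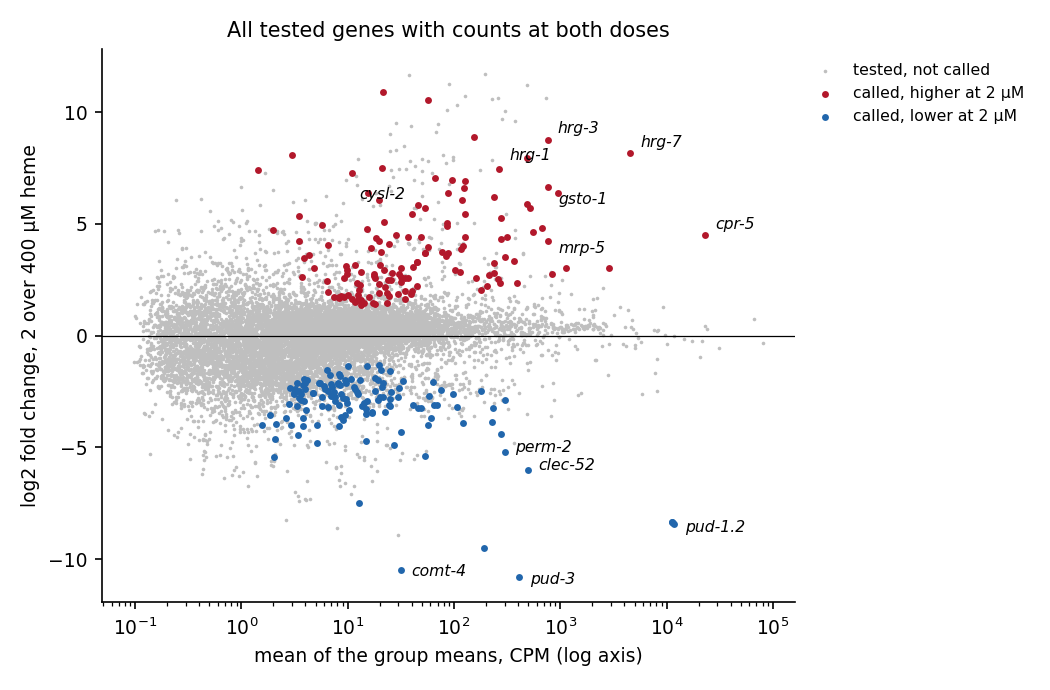
Log2 fold change of 2 over 400 µM heme (vertical axis) against the mean of the group means in CPM (horizontal log axis) for every tested gene with counts at both doses. Red points are genes called higher and blue points genes called lower at 2 µM heme, grey points were not called. The higher genes hrg-3, hrg-7 and cpr-5 and the lower pud genes combine large fold changes with high levels.

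The heme transport and trafficking list had 10 measured genes, all of which passed the filter on low counts. Of these, 5 rose at 2 µM heme and 0 fell, against 1.18 and 1.06% of all genes tested. In 7 of the 10 the 2 dose groups did not overlap, all with the higher level at 2 µM, against 15.5% of all tested genes. The list's median log2 fold change was 5.32, against 0.06 over all genes tested. The 10 genes took 1.19, 1.49 and 1.43% of the counts at 2 µM heme and 0.0117, 0.0116 and 0.0149% at 400 µM heme.

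The importers come first in the route of heme. HRG-1 moves heme out of lysosome-related compartments and HRG-4 brings it in at the surface of the intestinal cell. The gene hrg-1 (chromosome X, 4008058 to 4016250, build WBcel235) had 397, 593 and 578 CPM at 2 µM heme, against 4.04, 2.49 and 2.29 CPM at 400 µM. The gap between the groups was far wider than the spread within them, and the log2 fold change was 7.47 ± 0.47 (SE; edgeR adjusted p = 0.00422, called also with the libraries summed). For hrg-4 (chromosome IV, 11030143 to 11030993) the libraries held 86.2, 219 and 218 CPM at 2 µM heme, against 3.47, 1.72 and 1.01 CPM at 400 µM. It rose by a log2 fold change of 6.39 ± 0.72 (edgeR adjusted p = 0.0165), with replicate 1 the lowest of the 2 µM libraries, and was not called with the libraries summed. Its paralogs hrg-5 and hrg-6 lie on either side of it, at 11028289 to 11029428 and 11032588 to 11033599. Neither passed the test. The level of hrg-6 was 2.08, 3.86 and 3.73 CPM at 2 µM heme and 2.33, 1.53 and 1.62 CPM at 400 µM (log2 fold change 0.82 ± 0.44, edgeR adjusted p = 0.355). The level of hrg-5 averaged 1.15 ± 1.05 CPM at 2 µM and 1.0 ± 0.37 CPM at 400 µM (SD, n = 3 each), and its log2 fold change of 0.20 became -0.88 without replicate 1 at 2 µM.

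The genes for secreted proteins had the highest mean levels of the list at 2 µM heme, per length. HRG-3 is an intercellular heme chaperone that the intestine releases and that delivers heme to other tissues and embryos. Its gene (chromosome V, 9756468 to 9757019) had 1791, 1438 and 1307 CPM at 2 µM heme, against 2.92, 2.66 and 4.82 CPM at 400 µM, a 436-fold difference of the means. The log2 fold change was 8.77 ± 0.50 (edgeR adjusted p = 0.00422, called also with the libraries summed). HRG-7 resembles aspartic proteases and signals heme status between the intestine and neurons. The gene hrg-7 (chromosome V, 12742041 to 12744171) had 5677, 10844 and 10709 CPM at 2 µM heme, against 33.8, 25 and 36.3 CPM at 400 µM. It rose by a log2 fold change of 8.16 ± 0.55 (edgeR adjusted p = 0.00442) and was also called with the libraries summed. Per length, in the deposited FPKM, the mean levels of hrg-3 and hrg-7 were 6501 and 6348 at 2 µM heme, and 15.7 and 24 at 400 µM. At 2 µM their library ranges overlapped, from 5368 to 8118 FPKM for hrg-3 and from 4259 to 7505 FPKM for hrg-7.

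The exporter gene mrp-5 (chromosome X, 14938502 to 14946317), an ABC transporter of the basolateral membrane, had the smallest of the 5 called log2 fold changes on this list. Its level was 785, 1798 and 1777 CPM at 2 µM heme, against 46.9, 91.9 and 90.4 CPM at 400 µM. The log2 fold change was 4.25 ± 0.53 (edgeR adjusted p = 0.0217), and mrp-5 was not called with the libraries summed. Per length its mean level was 304 FPKM at 2 µM heme and 16.8 FPKM at 400 µM.

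The remaining members did not pass the test. The gene hrg-2, which encodes a heme-binding membrane protein described in the hypodermis, had 2801, 793 and 766 CPM at 2 µM heme, against 1.52, 0 and 1.18 CPM at 400 µM. The groups were far apart, but replicate 1 held more than the other 2 µM libraries, and the log2 fold change of 10.65 ± 2.00 had an edgeR adjusted p of 0.0556. It was 9.68 without replicate 1 at 2 µM and 11.31 without replicate 1 at 400 µM. Hypodermis markers took 0.342, 0.00390 and 0.00368% of the counts at 2 µM heme, against 0.0751, 0.0233 and 0.0154% at 400 µM, and their part in the hrg-2 level was not tested. The pair hrg-9 and hrg-10, relatives of human TANGO2 that act in heme trafficking, gave different values. The gene hrg-9 (R186.1 in the deposited table) had 55.3, 15 and 17 CPM at 2 µM heme and 3.58, 1.12 and 1.51 CPM at 400 µM (log2 fold change 3.81 ± 0.74, edgeR adjusted p = 0.0598). That value was 2.87 without replicate 1 at 2 µM and 4.48 without replicate 1 at 400 µM. The gene hrg-10 averaged 2.50 ± 1.43 CPM at 2 µM and 2.46 ± 0.56 CPM at 400 µM (SD, n = 3 each).

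**Figure D2:**
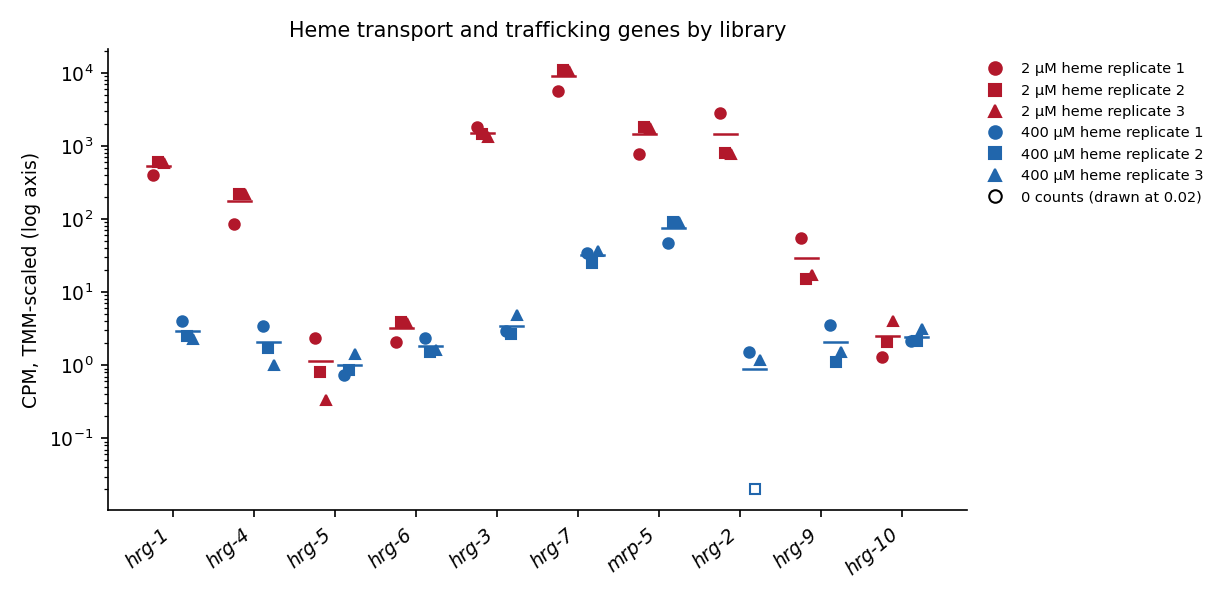
CPM (log axis) of the 10 heme transport and trafficking genes in each library, with 2 µM heme in red left of 400 µM heme in blue for each gene. Symbols mark replicates, horizontal bars the group means, and an open symbol a library with 0 counts. In hrg-1, hrg-4, hrg-3, hrg-7, mrp-5, hrg-2 and hrg-9 the groups do not overlap, whereas those of hrg-5, hrg-6 and hrg-10 do.

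Neighbours of hrg-3 rose as well. F58E6.11 (chromosome V, 9756927 to 9757984), whose span overlaps hrg-3, averaged 21.7 ± 1.90 CPM at 2 µM heme and 0.135 ± 0.099 CPM at 400 µM (SD, n = 3 each; log2 fold change 7.28 ± 0.60, edgeR adjusted p = 0.00798), and was called with the libraries summed. Its log2 fold change was 8.07 without replicate 1 at 400 µM. F58E6.8, at 9754995 to 9755825, had 74.8, 26.3 and 28.8 CPM at 2 µM heme, against 0, 0 and 0.0604 CPM at 400 µM (log2 fold change 10.89 ± 1.22, edgeR adjusted p = 0.0165). That fold rests on few counts at 400 µM heme: it was 10.18 without replicate 1 at 2 µM and 14.38 without replicate 3 at 400 µM. Both neighbours were chosen after their values were seen, and whether the counting used strand is not given in the sources used here.

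The genes with the smallest p among the rises include several that carry only sequence names. ZK154.1 had 76.6, 134 and 132 CPM at 2 µM heme, against 0.0412, 0.0587 and 0.121 CPM at 400 µM. Its log2 fold change was 10.56 ± 0.64 (edgeR adjusted p = 0.00422). B0205.13 had 322, 307 and 293 CPM at 2 µM heme and 0.892, 0.352 and 0.679 CPM at 400 µM (log2 fold change 8.90 ± 0.54). R193.2 had 1067, 1006 and 980 CPM at 2 µM heme and 21.9, 19.6 and 17.5 CPM at 400 µM (log2 fold change 5.69 ± 0.34). These genes, C50A2.3 (5.11 ± 0.25) and C24D10.5 (5.43 ± 0.34) were picked for a small p, so a small spread within a dose follows from that choice. All 5 were also called with the libraries summed. ZK154.1 shares its position with ZK154.4, which averaged 116 CPM at 2 µM heme and 40.1 CPM at 400 µM and was not called.

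Cytochrome P450 enzymes bind heme and oxidise lipids, hormones and foreign compounds. Of 72 P450 genes in the table, 55 passed the filter on low counts; 6 rose (1.18% of all tested genes did) and 1 fell (1.06% did), and the list's median log2 fold change was 0.86. Without replicate 1 at 2 µM heme that median was 0.09. The gene cyp-14A4 had 46.4, 45.4 and 40.04 CPM at 2 µM heme and no counts at 400 µM, at least 2787-fold higher at 2 µM if 3 counts over the 400 µM group are taken as the limit, and was called with the libraries summed (edgeR adjusted p = 0.00442 with all 6 libraries). Its relative cyp-14A2 averaged 8.50 ± 0.85 CPM at 2 µM and 1.04 ± 0.23 CPM at 400 µM (SD, n = 3 each). The gene cyp-35A2 had 507, 408 and 381 CPM at 2 µM heme, against 41.5, 43.0 and 49.9 CPM at 400 µM (log2 fold change 3.27 ± 0.30, edgeR adjusted p = 0.0117). The others that rose were cyp-35A1, cyp-35C1 and cyp-33C9. The gene cyp-31A5 fell, with 0.875 ± 0.164 CPM at 2 µM and 5.43 ± 2.2 CPM at 400 µM (SD, n = 3 each). The partner enzyme that supplies electrons to P450s, NADPH-cytochrome P450 reductase, is encoded by emb-8, named here after its values were seen. It had 213, 332 and 330 CPM at 2 µM heme, against 57.5, 78.5 and 76.3 CPM at 400 µM (log2 fold change 2.04 ± 0.33, edgeR adjusted p = 0.0391).

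UDP-glucuronosyltransferases attach sugars to small molecules and so make them soluble. Of 61 such genes, 53 were tested; 8 rose and 1 fell, where 1.18% of all tested genes rose and 1.06% fell, and the median log2 fold change was 0.76. Without replicate 1 at 2 µM heme the median was 0.32. The gene ugt-16 had 490, 588 and 557 CPM at 2 µM heme, against 10.3, 13.2 and 18.5 CPM at 400 µM (log2 fold change 5.28 ± 0.39, edgeR adjusted p = 0.00605). The gene ugt-28 averaged 54.2 ± 11.2 CPM at 2 µM and 2.38 ± 0.28 CPM at 400 µM (SD, n = 3 each), and these 2 were called with the libraries summed. The others that rose were ugt-21, ugt-17, ugt-12, ugt-50, ugt-48 and ugt-19. The member that fell was ugt-44, with 112, 53.8 and 53.9 CPM at 2 µM heme, against 621, 417 and 561 CPM at 400 µM (log2 fold change -2.86 ± 0.44, edgeR adjusted p = 0.0359).

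Glutathione S-transferases conjugate glutathione to reactive compounds. Of 47 such genes, 39 were tested; 4 rose and 0 fell (1.18 and 1.06% over all tested genes), with a median log2 fold change of 0.74 (0.14 without replicate 1 at 2 µM heme). The omega-class gene gsto-1 had 980, 1823 and 1761 CPM at 2 µM heme, against 17.1, 9.32 and 18.9 CPM at 400 µM. It rose by a log2 fold change of 6.65 ± 0.54 (edgeR adjusted p = 0.00798), also with the libraries summed. The second omega-class member to rise, gsto-2, had 1.93, 1.37 and 1.33 CPM at 2 µM heme and no counts at 400 µM, at least 97.9-fold higher at 2 µM heme. The gene gst-19 had 158, 169 and 161 CPM at 2 µM heme and 12.7, 19 and 5.87 CPM at 400 µM (log2 fold change 3.70 ± 0.49, edgeR adjusted p = 0.0243). The gene gst-6 had 1116, 465 and 446 CPM at 2 µM heme, against 102, 48.3 and 46.2 CPM at 400 µM, and its log2 fold change of 3.36 was 2.72 without replicate 1 at 2 µM.

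ABC transporters had 45 tested members, of which 4 rose and 0 fell, against 1.18 and 1.06% of all tested genes, with a median log2 fold change of 0.16. Besides mrp-5 these were haf-7, haf-3 and cft-1. The half-transporter gene haf-7 had 53.2, 222 and 227 CPM at 2 µM heme, against 6.16, 3.66 and 5.58 CPM at 400 µM (log2 fold change 5.02 ± 0.68, edgeR adjusted p = 0.0244). The gene cft-1 had 27, 48.8 and 50.7 CPM at 2 µM heme and 0.206, 0 and 0.468 CPM at 400 µM, and its log2 fold change of 7.51 was 8.49 without replicate 3 at 400 µM. Its position is shared with ugt-48, which also rose (200.8 ± 27.2 CPM at 2 µM and 28 ± 11.9 CPM at 400 µM; SD, n = 3 each), so the reads of the pair may not be separable. Nuclear hormone receptors, transcription factors that respond to small ligands, had 172 tested members, of which 4 rose (nhr-210, nhr-202, nhr-142 and nhr-115) and 0 fell. The 4 were 2.33% of the members, where 1.18% of all tested genes rose and 1.06% fell. In 51 members the 2 µM libraries lay above the 400 µM libraries and in 4 below, against 15.5 and 13.8% of all tested genes. DESeq2 called 27 members higher and 2 lower, against 6.26 and 8.92% of all tested genes. With the libraries summed, edgeR called 0 members.

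**Figure D3:**
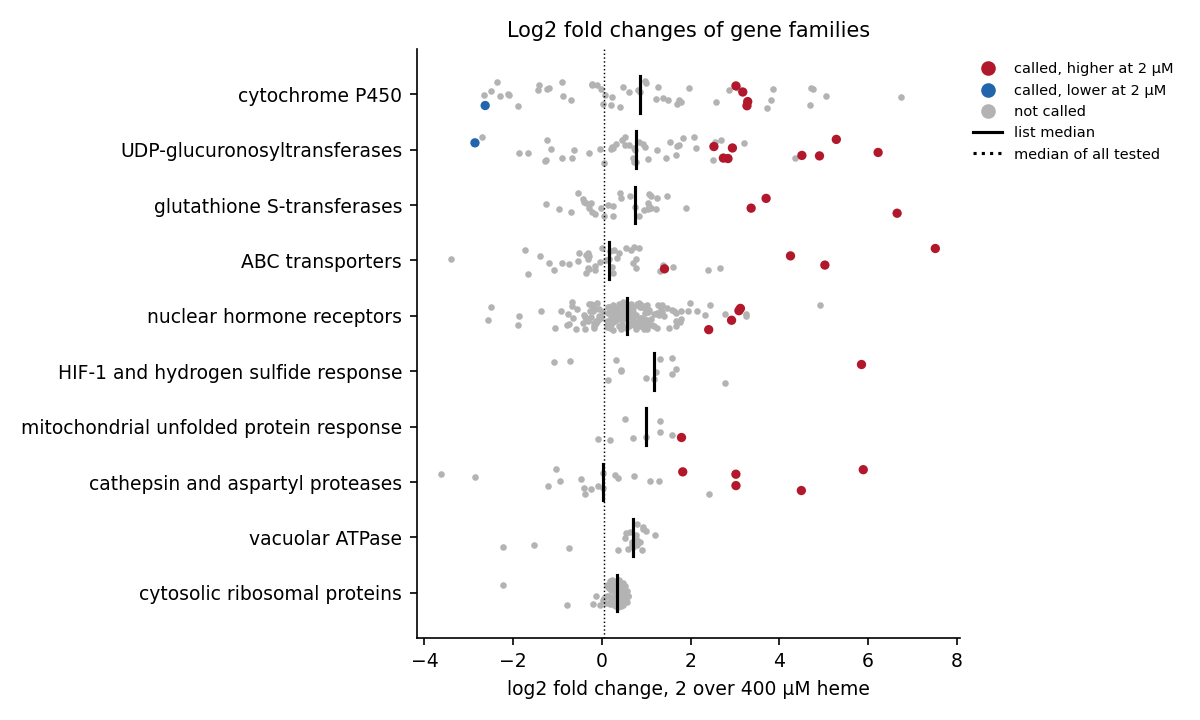
Log2 fold change of 2 over 400 µM heme for each tested member of 10 gene lists, with red for members called higher, blue for members called lower and grey for members not called. Black bars are list medians and the dotted line is the median of all tested genes. Members whose libraries at 1 dose all had 0 counts have no fold and are not drawn. Called P450, glucuronosyltransferase and glutathione S-transferase members lie to the right, apart from 1 P450 and 1 glucuronosyltransferase, while no vacuolar ATPase or ribosomal protein gene was called.

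Proteases of the intestinal lumen and lysosome made up a large share of the RNA, and 5 of the 23 tested cathepsin and aspartyl protease genes rose while 0 fell, against 1.18 and 1.06% of all tested genes. In 7 members the 2 µM libraries lay above the 400 µM libraries and in 4 below, against 15.5 and 13.8% of all tested genes. DESeq2 called 7 members higher and 4 lower, against 6.26 and 8.92% of all tested genes. The list as a whole took 17.8, 14.2 and 13.9% of the counts at 2 µM heme and 12.1, 13 and 13.4% at 400 µM, and its median log2 fold change was 0.03. The cathepsin B-like gene cpr-5 had 58333, 36359 and 37690 CPM at 2 µM heme, against 3102, 2147 and 624 CPM at 400 µM. It rose by a log2 fold change of 4.49 ± 0.74 (edgeR adjusted p = 0.0415), although its 400 µM libraries were widely spread, and it was not called with the libraries summed. Its relative cpr-8 had 1199, 832 and 821 CPM at 2 µM heme and 25.6, 13.9 and 8.6 CPM at 400 µM (log2 fold change 5.89 ± 0.58, edgeR adjusted p = 0.0123). The aspartyl protease gene asp-8 had 2172, 1914 and 1926 CPM at 2 µM heme, against 245, 170 and 327 CPM at 400 µM (log2 fold change 3.02 ± 0.38, edgeR adjusted p = 0.0217). The other two were asp-7, with 56.9 ± 6.62 CPM at 2 µM and 7.01 ± 3.19 CPM at 400 µM, and asp-17, with 19.4 ± 5.9 CPM at 2 µM and 5.50 ± 1.09 CPM at 400 µM (SD, n = 3 each). Outside this list, nep-22 of the neprilysin family of peptidases averaged 1454 ± 53.8 CPM at 2 µM and 217.8 ± 35.1 CPM at 400 µM (SD, n = 3 each; log2 fold change 2.74 ± 0.31, edgeR adjusted p = 0.0165). The cathepsin A-like gene ctsa-4.1 had 2256, 1706 and 1623 CPM at 2 µM heme, against 34.4, 4.90 and 27.6 CPM at 400 µM (log2 fold change 6.38 ± 0.86, edgeR adjusted p = 0.0244). It overlaps clec-88 in position, and clec-88 fell.

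Genes of sulfide and metal stress were measured as separate lists. Of 15 genes of the HIF-1 and hydrogen sulfide response, which low oxygen and sulfide induce, 1 rose and 0 fell, against 1.18 and 1.06% of all tested genes, and the median log2 fold change was 1.17. The gene that rose was cysl-2, a cysteine synthase family member, with 74.6, 101 and 93.2 CPM at 2 µM heme, against 1.63, 2.11 and 0.966 CPM at 400 µM. Its log2 fold change was 5.83 ± 0.43 (edgeR adjusted p = 0.00605), and it was called with the libraries summed. The list's nhr-57, a HIF-1 target, had 42.9, 19.5 and 17.4 CPM at 2 µM heme and 3.77, 5.46 and 2.38 CPM at 400 µM (log2 fold change 2.78 ± 0.50, edgeR adjusted p = 0.0508; 2.18 without replicate 1 at 2 µM). For hif-1 itself the log2 fold change was 0.42 ± 0.42. Of 12 cadmium-response and metallothionein genes, 2 rose and 0 fell, beside the same shares of all tested genes (1.18 and 1.06%). The gene cdr-4 had 196, 230 and 220 CPM at 2 µM heme, against 18.8, 9.26 and 16.4 CPM at 400 µM (log2 fold change 3.86 ± 0.38, edgeR adjusted p = 0.0130), and cdr-1 averaged 46.5 ± 5.30 CPM at 2 µM and 2.70 ± 1.39 CPM at 400 µM (SD, n = 3 each).

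A pair of copper genes, named after their values were seen, also rose. The copper transporter gene chca-1 had 695, 452 and 438 CPM at 2 µM heme, against 37.1, 20.1 and 21.2 CPM at 400 µM (log2 fold change 4.34 ± 0.44, edgeR adjusted p = 0.0137). The copper chaperone gene cuc-1 had 251, 109 and 108 CPM at 2 µM heme, against 12.6, 14.7 and 12.3 CPM at 400 µM (log2 fold change 3.56 ± 0.45, edgeR adjusted p = 0.0227). Neither was called with the libraries summed. In the iron list, 0 of 8 tested genes rose and 1 fell (1.18 and 1.06% of all tested genes). That was fpn-1.2, a ferroportin-like iron exporter gene, with 17.3, 31 and 33.2 CPM at 2 µM heme, against 185.9, 161 and 154 CPM at 400 µM (log2 fold change -2.62 ± 0.35, edgeR adjusted p = 0.0244). The ferritin gene ftn-1, which stores iron, had 3157, 298 and 290 CPM at 2 µM heme and 95.9, 311 and 185 CPM at 400 µM. Its groups overlapped, and its log2 fold change of 2.66 ± 1.1 (edgeR adjusted p = 0.241) was 0.52 without replicate 1 at 2 µM.

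Mitochondrial lists had few calls. Of 41 tested nuclear-encoded genes of the respiratory chain and ATP synthase, whose complexes use heme in their cytochromes, 0 rose and 1 fell, near the 1.18 and 1.06% of all tested genes, and the median log2 fold change was 0.45. The gene that fell was ucr-2.3, a core subunit of the cytochrome bc1 complex, with 4.32, 5.41 and 5.88 CPM at 2 µM heme and 22.7, 18.2 and 21 CPM at 400 µM (log2 fold change -1.99 ± 0.24, edgeR adjusted p = 0.0188). Of 9 genes of the mitochondrial unfolded protein response, 1 rose (dnj-10, a mitochondrial co-chaperone gene, 38.1 ± 7.77 CPM at 2 µM and 11.1 ± 1.57 CPM at 400 µM; SD, n = 3 each). In 7 of the 9 the groups did not overlap with the higher level at 2 µM, against 15.5% of all tested genes, of which 1.18% were called higher. The chaperone gene hsp-6 had 45.8, 50.2 and 44.3 CPM at 2 µM heme and 14.7, 20.5 and 11.5 CPM at 400 µM, but its log2 fold change of 1.58 ± 0.29 had an edgeR adjusted p of 0.0529. Outside the lists, and named after their values were seen, tomm-70 of the import machinery (log2 fold change 1.66 ± 0.23), the inner-membrane protease gene ymel-1 (1.48 ± 0.21) and coq-1 of ubiquinone synthesis (2.58 ± 0.36) rose. Of 18 tested genes for enzymes that use or attach heme, 0 rose and 1 fell (1.18 and 1.06% of all tested genes). It was the peroxidase gene skpo-1, at 0.880, 2.23 and 1.25 CPM at 2 µM heme and 17.6, 20.7 and 13.3 CPM at 400 µM (log2 fold change -3.56 ± 0.44, edgeR adjusted p = 0.0213). The catalase gene ctl-2 had 158, 235.9 and 221 CPM at 2 µM heme and 304, 493 and 450 CPM at 400 µM, and its log2 fold change of -1.02 ± 0.34 did not pass (edgeR adjusted p = 0.169). It overlaps Y54G11A.7 in position, which rose, with means of 602 CPM at 2 µM and 28.4 CPM at 400 µM (edgeR adjusted p = 0.0141). The reads of this pair may not be separable. Of 7 tested globin genes, 0 were called (1 had an unadjusted p under 0.05 in each direction, and DESeq2 called 1 in each).

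Metabolic genes among the calls included gln-1, a glutamine synthetase gene, with 99.7, 106 and 93.8 CPM at 2 µM heme, against 6.26, 9.54 and 7.34 CPM at 400 µM (log2 fold change 3.69 ± 0.30, edgeR adjusted p = 0.00798). The lipid-binding protein gene lbp-3 had 181, 281 and 276 CPM at 2 µM heme, against 7.10, 5.54 and 4.08 CPM at 400 µM (log2 fold change 5.46 ± 0.41, edgeR adjusted p = 0.00634). Both were called with the libraries summed. The gene glo-1, a Rab GTPase gene needed for gut granules, was named after its values were seen and had 23.9, 33.8 and 34.3 CPM at 2 µM heme, against 5.0, 5.17 and 4.44 CPM at 400 µM (log2 fold change 2.65 ± 0.25, edgeR adjusted p = 0.0117). Of 58 fatty acid activation and oxidation genes, 16 desaturases and elongases, 21 vacuolar ATPase genes and 84 cytosolic ribosomal protein genes, 0 were called by edgeR. At an unadjusted p under 0.05, these lists had 7, 0, 11 and 1 genes, and DESeq2 called 6, 0, 6 and 1. Of the genes with such a p, 2, 0, 9 and 0 were higher at 2 µM heme. Over all 12701 genes tested, 2609 had such a p and DESeq2 called 1928. In 13 of the 21 vacuolar ATPase genes the 2 µM libraries lay above the 400 µM libraries and in 2 below. Over all tested genes those shares were 15.5 and 13.8%. The 6 yolk protein genes had 0 calls, 0 at an unadjusted p under 0.05 and 0 with DESeq2. Redox defence (23 tested), the endoplasmic reticulum unfolded protein response (14), lysozymes and saposin-like proteins (33), pathogen response (26) and pals genes (23) likewise had 0 edgeR calls. They had 8, 7, 9, 5 and 4 genes at an unadjusted p under 0.05, of which 7, 7, 2, 0 and 4 were higher at 2 µM. DESeq2 calls numbered 6, 3, 8, 4 and 2. In 7 of the 14 endoplasmic reticulum genes the groups did not overlap, all with the higher level at 2 µM, against 15.5% of all tested genes. That list's median log2 fold change of 0.98 was 0.55 without replicate 1 at 2 µM heme. Its share of the counts was 0.824, 0.301 and 0.303% at 2 µM heme. At 400 µM it was 0.434, 0.129 and 0.128%, so the summed shares overlapped. The yolk gene vit-2 varied more between libraries than between doses, with 15516, 98486 and 104200 CPM at 2 µM heme and 36741, 130510 and 102500 CPM at 400 µM.

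All 6 pud genes fell. They are small genes named for proteins found in higher amounts in a daf-2 mutant, and they lie within a short stretch of chromosome V between 2322038 and 2330930. Together they took 0.0546, 0.0175 and 0.0111% of the counts at 2 µM heme and 10.9, 9.11 and 8.49% at 400 µM. The gene pud-1.2 had 137, 41.1 and 26.7 CPM at 2 µM heme, against 25670, 25850 and 18902 CPM at 400 µM. Its log2 fold change was -8.43 ± 0.92 (edgeR adjusted p = 0.0154), and -9.50 without replicate 1 at 2 µM. The genes pud-1.1, pud-2.1 and pud-2.2 had nearly the same values as pud-1.2, with log2 fold changes of -8.35, -8.37 and -8.32, and -9.42, -9.19 and -9.15 without that replicate. The reads of pud-1.1 and pud-1.2, and of pud-2.1 and pud-2.2, may not be separable, since they are near-identical copies. Between the copies lie pud-3 and pud-4, and these were called with the libraries summed. The gene pud-3 had 0.573, 0.727 and 0.0586 CPM at 2 µM heme, against 540, 781 and 1141 CPM at 400 µM (log2 fold change -10.81 ± 1.19, edgeR adjusted p = 0.0155). The gene pud-4 had 0.653, 0.778 and 0.156 CPM at 2 µM heme and 208, 397 and 552 CPM at 400 µM (log2 fold change -9.50 ± 0.92, edgeR adjusted p = 0.0123). Per length, pud-1.2 averaged 49610 FPKM at 400 µM heme, against 140 FPKM at 2 µM.

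**Figure D4:**
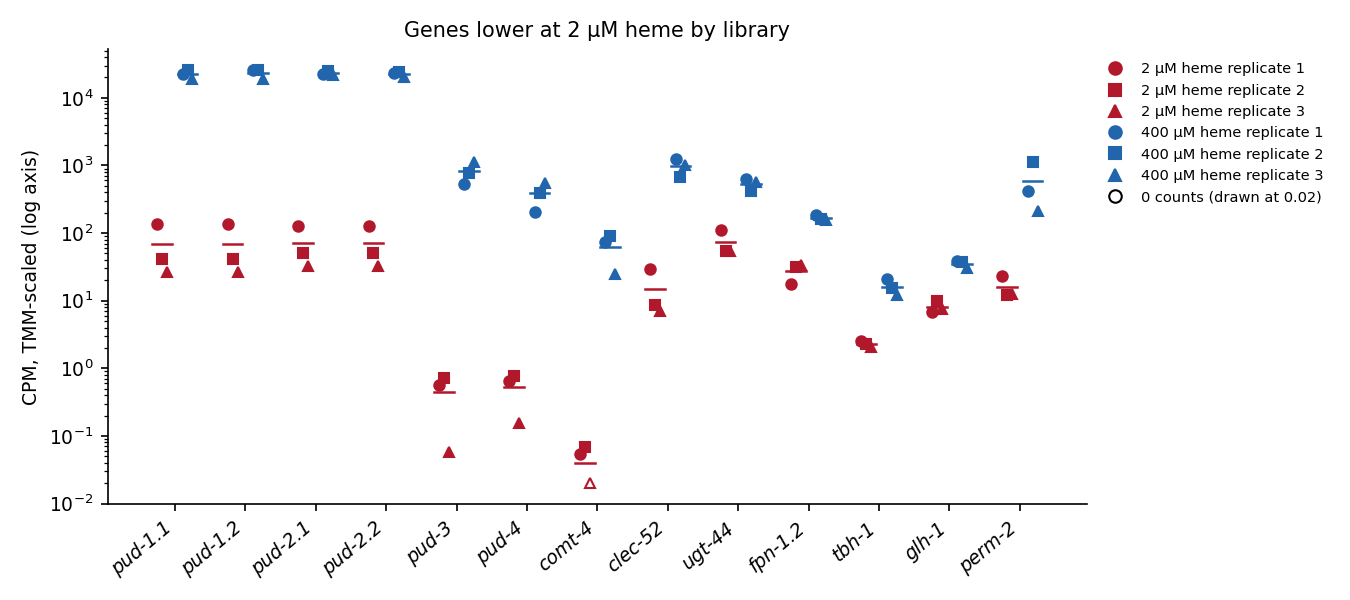
CPM (log axis) of 13 genes called lower at 2 µM heme in each library, with 2 µM heme in red left of 400 µM heme in blue. Symbols mark replicates, bars the group means, and an open symbol a library with 0 counts. The 4 duplicated pud genes lie between 18902 and 25850 CPM at 400 µM heme. No gene shown has overlapping groups, which holds for all 134 genes called lower.

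Other falls with high levels at 400 µM heme included clec-52, a C-type lectin gene, with 29.0, 8.57 and 7.09 CPM at 2 µM heme, against 1230, 667 and 1005 CPM at 400 µM. Its log2 fold change was -6.02 ± 0.77 (edgeR adjusted p = 0.0227), and -7.01 without replicate 1 at 2 µM. C-type lectins bind sugars and many are secreted by the intestine. Of their 111 tested genes, 2 rose (clec-47 and clec-45) and 3 fell (clec-52, clec-88 and clec-172), where 1.18% of all tested genes rose and 1.06% fell. With so few members called, this is no result about the family. The gene clec-47 had 4279, 5801 and 5369 CPM at 2 µM heme and 459, 931 and 496 CPM at 400 µM (log2 fold change 3.03 ± 0.44, edgeR adjusted p = 0.0299). The methyltransferase gene comt-4 had 0.0533, 0.0676 and 0 CPM at 2 µM heme, against 72.6, 91.7 and 25 CPM at 400 µM. The log2 fold change of -10.49 rests on few counts at 2 µM (edgeR adjusted p = 0.0137), and comt-4 was called with the libraries summed. The gene tbh-1, whose copper enzyme makes octopamine from tyramine, had 2.49, 2.30 and 2.05 CPM at 2 µM heme, against 20.6, 15.3 and 12 CPM at 400 µM (log2 fold change -2.80 ± 0.30, edgeR adjusted p = 0.0147).

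Several falls with small p had low levels and little spread within a dose. C13G3.1 had 2.97, 2.2 and 2.15 CPM at 2 µM heme, against 25.1, 21.9 and 35.0 CPM at 400 µM (log2 fold change -3.48 ± 0.31, edgeR adjusted p = 0.00997). The gene skr-2, a relative of the ubiquitin ligase subunit Skp1, had 2.24, 2.35 and 2.68 CPM at 2 µM heme and 12.9, 15.6 and 15.9 CPM at 400 µM (log2 fold change -2.61 ± 0.25, edgeR adjusted p = 0.0117). The gene pid-1, which acts in the piRNA pathway of the germline, had 3.68, 3.43 and 4.28 CPM at 2 µM heme and 17.3, 22.4 and 17.2 CPM at 400 µM (log2 fold change -2.32 ± 0.24, edgeR adjusted p = 0.0142). D2030.7 (-2.50 ± 0.27, edgeR adjusted p = 0.0147) and F01D5.3 (-3.01 ± 0.33, edgeR adjusted p = 0.0153) fell as well. None of these 5 genes was called with the libraries summed. They were picked for a small p and for groups without overlap, so their small spread within a dose follows from that choice.

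Germline and oocyte markers were lower at 2 µM heme. Of 22 such genes, 7 fell and 0 rose, against 1.06 and 1.18% of all tested genes, and in all 22 the 2 µM libraries lay below the 400 µM libraries, against 13.8% of all tested genes. The median log2 fold change was -2.60. The gene glh-1, an RNA helicase gene of germ granules, had 6.75, 9.89 and 7.5 CPM at 2 µM heme, against 38.6, 37.0 and 30.2 CPM at 400 µM (log2 fold change -2.13 ± 0.26, edgeR adjusted p = 0.0206). The eggshell gene perm-2 had 23, 12.2 and 12.5 CPM at 2 µM heme, against 423, 1122 and 212 CPM at 400 µM, and its log2 fold change of -5.20 (edgeR adjusted p = 0.0332) was -4.32 without replicate 2 at 400 µM. The others that fell were glh-2, pgl-3, perm-4, mex-6 and nos-2. Of these, perm-4, mex-6 and nos-2 also moved without replicate 2 at 400 µM, to log2 fold changes of -3.70, -2.95 and -2.52. None of the 7 was called with the libraries summed. Further falls in genes of DNA replication, meiosis and germline RNA control were named after their values were seen. They included mcm-2 (log2 fold change -2.92 ± 0.45), htp-1 (-2.56 ± 0.37), cyb-1 (-3.10 ± 0.41) and puf-3 (-3.12 ± 0.49).

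Markers of tissues next to the intestine differed between single libraries. Germline and oocyte markers took 0.0160, 0.0362 and 0.0345% of the counts at 2 µM heme, against 0.209, 0.424 and 0.158% at 400 µM, and none of them was at 0 in every library. Sperm markers took 0.147, 0.153 and 0.151% at 2 µM heme and 1.55, 0.142 and 0.873% at 400 µM, so replicate 2 at 400 µM lay below the 2 µM libraries and the groups overlapped. Of the 49 tested sperm genes, edgeR called 0, with 34 lower at an unadjusted p under 0.05, and DESeq2 called 32 lower. Over all 12701 genes tested, 2609 had such a p in either direction. DESeq2 called 8.92% of all tested genes lower and 6.26% higher. Body wall muscle markers took 0.0934, 0.00518 and 0.00577% at 2 µM heme and 0.0748, 0.0202 and 0.0166% at 400 µM. Pharynx markers took 0.00153, 0.00134 and 0.00117% at 2 µM heme and 0.0209, 0.00186 and 0.00153% at 400 µM. The part of other tissue in the germline and other falls was not tested. Inducible heat shock genes (14 tested) and cuticle collagens (72 tested) had median log2 fold changes of 2.38 and 2.06. Without replicate 1 at 2 µM heme these medians were -3.41 and -2.24. From either list edgeR called 0 genes. An unadjusted p under 0.05 was found for 1 heat shock gene and 18 collagen genes, and DESeq2 called 1 and 3.

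**Figure D5:**
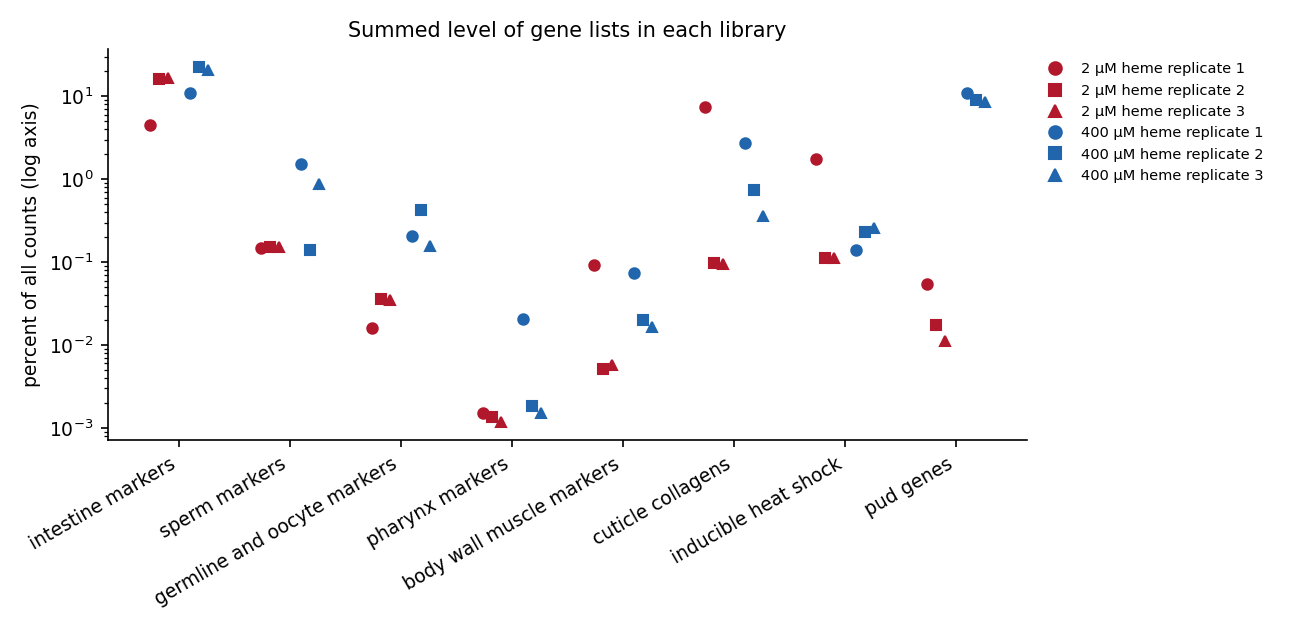
Summed share of all counts (percent, log axis) that each of 8 gene lists took in each library, with 2 µM heme in red left of 400 µM heme in blue. Symbols mark replicates. The pud genes and the germline and oocyte markers have no overlap between the doses. Replicate 1 at 2 µM heme stands apart from replicates 2 and 3 in intestine markers, body wall muscle markers, collagens and heat shock genes. The intestine markers include the yolk protein genes vit-2, vit-5 and vit-6.

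The called genes were spread over all 6 chromosomes. Chromosome V, which holds hrg-3, hrg-7, hrg-2, cpr-5 and the pud genes, held 57 of the 150 rises (38%) and 23 of the 134 falls (17.2%), against 19.3% of tested genes. Chromosome I held 14 of the rises (9.33%) and 35 of the falls (26.1%), against 17.3% of tested genes. Neighbouring genes of 1 family share sequence and position, so genes are not independent here, and the shares are a description.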

How the data were processed

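RNA from N2 intestines was measured in 6 libraries, 3 at 2 µM and 3 at 400 µM heme. The values are raw counts for each gene, per the file headers, and FPKM that the authors deposited beside them, used here only to set levels of different genes side by side. Bowtie 0.12.2 and build WBcel235 are named in the submitters' processing notes. The counting step, its use of strand and its handling of reads that match several genes are not given in the sources used here.

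Counts were fitted with edgeR 4.0.16 (R 4.3.3), with TMM scaling, filterByExpr (12701 of 21776 genes kept), glmQLFit and a two-sided glmQLFTest on these 6 libraries alone. A gene was called changed where p, adjusted over all genes tested by the Benjamini-Hochberg method, was under 0.05. The fit gave a common biological coefficient of variation of 0.747 with 2.40 prior degrees of freedom. The SE of a log2 fold change is the one implied by the quasi-likelihood F. DESeq2 1.42.0, voom in limma 3.58.1 and other filters, scalings and sets of libraries were alternatives. The fit was tested on simulated data. The simulated libraries were drawn independently, so that test cannot speak to the near-identical replicates 2 and 3 at 2 µM heme or to the outlying replicate 1. In replicate order, libraries at 2 µM heme held 72960600, 62130691 and 54923920 counts and libraries at 400 µM 63132612, 57099679 and 63752331. Ribosomal RNA made up 3.58 to 14.8% of a library at 2 µM heme and 6.45 to 11.6% at 400 µM. For a group with 0 counts the fold was bounded by setting 3 counts in that group (0.0162 CPM at 2 µM, 0.0158 CPM at 400 µM). Such bounds cover counting error only.

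The comparison and the 42 gene lists were chosen with earlier results of these data known. The text names, per direction, the 12 genes with the smallest p and the 8 with the highest level among called genes with a mean of at least 10 CPM in 1 group and no overlap between the groups. The naming rule also takes every measured heme transport gene and up to 4 members by p and 2 by level from each list, 235 genes in all. The text names every heme transport gene but only some of the other list members. The labels do not state whether the replicates are separate cultures. The p-values therefore reflect only how far these libraries differ, which may be technical. Gene positions are from RefSeq on WBcel235, to which 21714 genes were matched by identifier, and 24 of the 67 called genes named by the rule are overlapped by another gene.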

Additional observations from a re-analysis of the deposited data

How the results depend on the processing

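Against 284 changed genes, 150 higher and 134 lower, DESeq2 called 1928 (795 higher, 1133 lower), limma-voom with sample weights 3790 (1626 higher, 2164 lower), a stricter filter, 10 CPM or more in 3 libraries, 476 (252 lower), no filter 85 lower, and a fit with all 9 libraries of the series 14 (11 higher, 3 lower). Summing replicates 2 and 3 at 2 µM heme gave 23 (19 higher, 4 lower), and, chosen after seeing the data, the same sum gave 1281 with DESeq2 (522 higher, 759 lower) and 50 with limma-voom (44 higher, 6 lower). Leaving out 1 library at a time gave 0 to 1340 changed genes, 0 to 561 higher and 0 to 779 lower. Against 5 heme transport genes, limma-voom called 8, the sum 3, the fit with all 9 libraries 1, and leaving out 1 library 0 to 7. DESeq2's size factors in edgeR, robust fitting and removal of ribosomal RNA genes kept all 4 counts within 1.5 times. With the replicate number as a block, 0 genes were called (0 higher, 0 lower, 0 heme transport genes), with 2370 at an unadjusted p under 0.05. The main fit did not take the numbers to pair the libraries. Deviations of same-numbered libraries correlated at 0.24, 0.02 and 0.30, and those of differently numbered libraries at -0.32 to 0.32. Replicate 2 at 2 µM correlated best with replicate 3 at 400 µM (0.32). Since replicates 2 and 3 at 2 µM were close to identical, these correlations cannot decide whether the libraries are paired. Among 4172 alternative values of the genes named by the rule, 3406 kept direction and side of the threshold, 452 lost the call, 310 gained it and 4 reversed. The 4 were from limma-voom: hsp-16.49 at -4.72, col-124 at -3.17, lev-11 at -2.05 and unc-15 at -2.28 (log2 fold change). The cause of these shifts was not tested. With 3 libraries a dose, single libraries set many of the calls.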
